A study of Neotoma stephensi and Rattus norvegicus with 6 samples.

Results

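Heat shock proteins and their co-chaperones were compared between the foregut of Stephens' woodrats and that of lab rats. The genes were chosen by symbol from the deposited count tables. They comprise the Hspa, Hspb, Hspd, Hspe and Hsph genes, the Dnaj genes, the Cct and Bag genes with a numbered symbol, Tcp1, Stip1, Hsf1 and Hsf2, without Hspb6, Hspb8 and Hspbp1. This gave 77 of the 15481 genes in the files. The symbol rule leaves out the Hsp90 genes, which are described further on as other chaperones. A member named for heat shock need not be a chaperone, and Hspb11 is an example.

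Molecular chaperones bind proteins that are unfolded or being made and help them reach or regain their shape. Hsp70 proteins do this in cycles driven by ATP, in which J-domain proteins (the Dnaj genes) deliver clients and start ATP hydrolysis, while nucleotide exchange factors of the Hsp110 and BAG families release ADP and the client. Chaperonins are large rings that enclose a client, with CCT in the cytosol serving actin and tubulin, and Hsp60 with Hsp10 serving the mitochondrial matrix. Small heat shock proteins hold unfolded proteins without ATP and are abundant in muscle and in squamous epithelium. Heat shock factors switch on the inducible members under stress.

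Polyadenylated RNA from the fornix ventricularis of the stomach was sequenced in 3 woodrats (Neotoma stephensi) and 3 Sprague Dawley rats (Rattus norvegicus). All animals were female. The labels call all of them virgin, whereas the study's methods state this only for the lab rats. The woodrats were caught in the wild and fed juniper foliage until dissection the next day, and the lab rats had eaten standard chow in the laboratory for months, so species, diet, origin and handling cannot be told apart. Ages were not stated in the sources used here.

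Each animal had between 5439642 and 7932637 counted reads, assigned to mouse genes. Values are read counts scaled to a common library size with TMM (CPM), fold changes are woodrat over lab rat on the log2 scale, and errors are SD over 3 animals or the standard error (SE) of a fold change. A call is an FDR below 0.01 in edgeR's quasi-likelihood test over the 12603 tested genes. A gene with 3 counts stood at 0.355 to 0.586 CPM, depending on the animal. Every gene in the files had woodrat reads, while 809 had none in lab rats, so genes read only in lab rats were not analysed here. Squamous markers were present in both species, with a summed level of 14228 to 39962 CPM in the woodrats and 13485 to 17679 CPM in the lab rats. Krt13 and Krt4 made up most of this sum in every animal. Of the 10 markers, 6 had log2 fold changes below 0 and 4 above, with a median of -0.48. Krt4 was called higher in woodrats (3.34, FDR = 0.00626) and Ivl lower (-4.96, FDR = 0.000172). Woodrat 1 stood apart, at a median 0.277 times the other woodrats over the 10 squamous markers. Of 5 glandular markers Pgc, Tff2 and Muc6 were at or near 0, Atp4a was at 5.69 to 9.76 CPM over all animals, and Muc5ac had 17, 12 and 33 reads in woodrats and 0 in lab rats (FDR = 0.00305). Smooth muscle markers summed to between 38979 and 121034 CPM in the woodrats and between 10952 and 20349.6 CPM in the lab rats, highest in woodrat 1.

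Of the 77 members, 75 were tested, and 8 of them were higher in woodrats and 8 lower. Over all tested genes 10.3% were called higher and 9.71% lower (20.0% in either direction), so the 10.7% of members in each direction stood near the background. The median size of the members' log2 fold changes was 0.66, against 0.82 over all tested genes. Every woodrat lay above or below every lab rat for 48 members (64.0%), against 56.2% of all tested genes. Woodrats were higher for 23 of them and lower for 25, against 28.8% and 27.4% of all tested genes. The family as a whole therefore did not stand out in number of calls, and the differences lay in single members with distinct roles. In bulk tissue, fewer cells of a type and less RNA per cell cannot be told apart.

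The 16 calls kept their direction in every alternative fit in which they were tested. The species did not overlap for any of the 16, so a reversal was hardly possible and the kept direction adds no support. With each animal left out in turn, the fits retained 7 of the 16 calls without woodrat 1, 3 without woodrat 2 and 13 without woodrat 3, and 3, 4 and 6 without lab rats 1, 2 and 3. All 16 had an FDR below 0.05 in each of these 6 fits. How many of the calls over all genes these smaller fits retained was not determined.

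**Figure D1:**
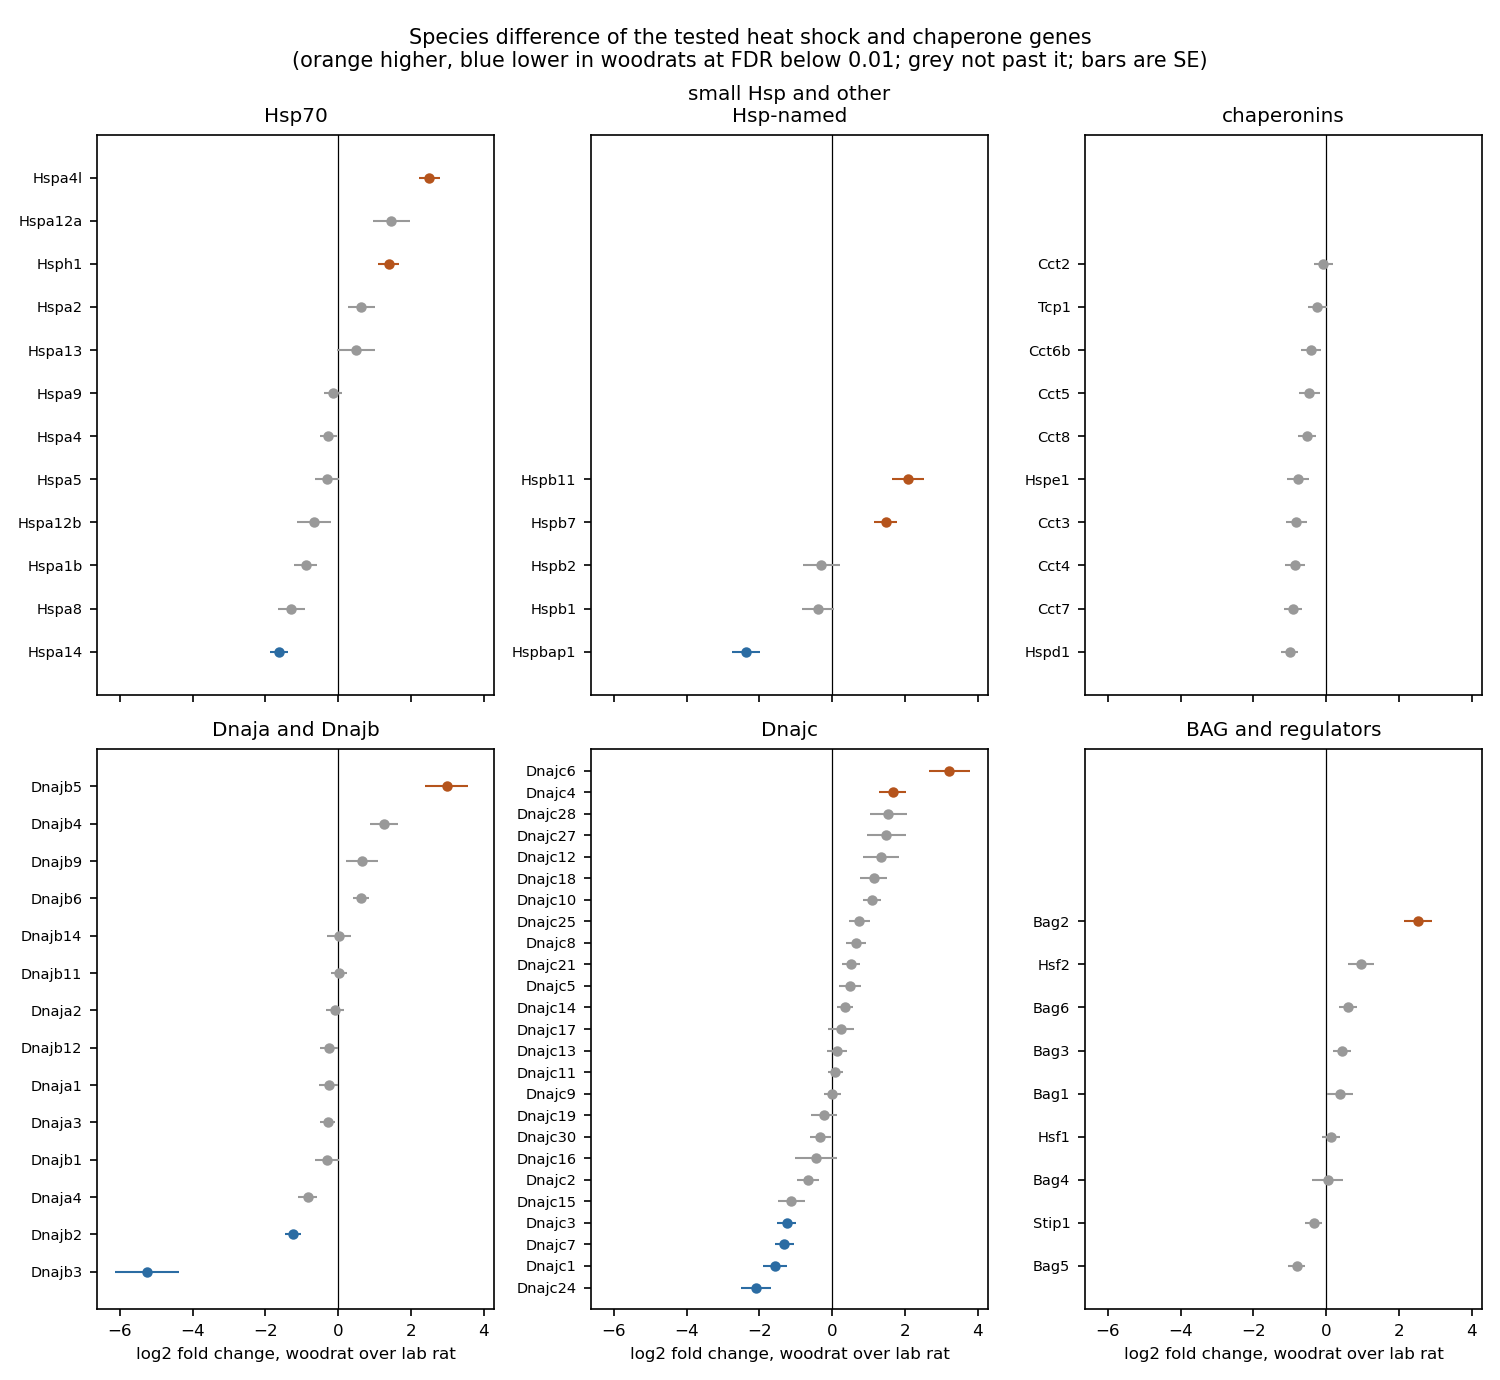
The log2 fold change of each of the 75 tested members (horizontal axis, woodrat over lab rat) with its SE, in panels by family. Orange points are the 8 members called higher in woodrats and blue points the 8 called lower. Grey points did not pass an FDR of 0.01, and all 10 chaperonin subunits are grey and left of 0.

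Together the members took between 0.973% and 1.075% of the counted reads in woodrats and between 1.26% and 1.503% in lab rats. Hspb1 and Hspa8 were the members with the most reads. In CPM, which is scaled by TMM, all 77 members summed to 9147 to 12004.5 in the woodrats and 11354.7 to 17992 in the lab rats. These ranges overlapped, unlike the shares of counted reads. Without Hspb1 and Hspa8 the sums were 6112 to 7749 CPM and 6872 to 9233 CPM, which overlapped too. Lab rat 3 was the highest lab rat for 48 of the 75 tested members (64.0%), against 40.5% of all tested genes. Its level was a median 1.22 times the mean of the other lab rats over the members and 0.944 times over all tested genes.

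Among the Hsp70 genes, Hspa4l and Hsph1 rose and Hspa14 fell, while 9 of the 12 did not pass the test. The share called was 25.0%, against 20.0% of all tested genes. Hspa4l (ENSMUSG00000025757.11) encodes an Hsp110 protein that exchanges nucleotide on Hsp70. It had 108, 60.7 and 108 CPM in the woodrats 1, 2 and 3 and 16.0, 17.9 and 14.6 CPM in the lab rats 1, 2 and 3. The lowest woodrat was far above the highest lab rat. Its log2 fold change was 2.51 (SE 0.30, FDR = 0.000856), and it was the only member called in all 13 alternative fits, with an FDR of at most 0.00796.

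Hsph1 (ENSMUSG00000029657.14), the stress-inducible Hsp110, had 298, 239 and 160.03 CPM in the woodrats and 99.0, 77.6 and 87.8 CPM in the lab rats. The species did not overlap, and the lab rats lay closer together than the woodrats. The log2 fold change was 1.40 (SE 0.29, FDR = 0.00659). Leaving out any 1 animal other than woodrat 3 raised the FDR to between 0.0136 and 0.0336. Hspa4, the third Hsp110 gene, had 234 ± 27.4 CPM in the woodrats and 282 ± 14.5 CPM in the lab rats (SD, n = 3), with a log2 fold change of -0.27 (FDR = 0.385).

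Hspa14 (ENSMUSG00000051396.13) encodes the Hsp70 partner of Dnajc2 in a complex that sits on the ribosome and meets new chains. It had 13.1, 16.9 and 17.1 CPM in the woodrats and 46.8, 41.5 and 57.4 CPM in the lab rats. All lab rats exceeded all woodrats, with a log2 fold change of -1.63 (SE 0.25, FDR = 0.00229). Without woodrat 2 or lab rat 1 the FDR was 0.0116 and 0.0104. Dnajc2 itself had 29.9 ± 4.39 CPM in the woodrats and 47.6 ± 16.8 CPM in the lab rats, with a log2 fold change of -0.67 (FDR = 0.106), or -0.35 without lab rat 3.

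The abundant Hsp70 genes did not pass the test. Hspa8, the constitutive cytosolic Hsp70 (Hsc70), had 1351, 1231 and 1075 CPM in the woodrats and 2588, 2188 and 4139 CPM in the lab rats. All lab rats lay above all woodrats, and lab rat 3 lay well above the other two. The log2 fold change was -1.29 (SE 0.37, FDR = 0.0247), or -0.97 (FDR = 0.0312) without lab rat 3, whereas scaling by total counts gave 0.0091 and DESeq2 gave 0.000597.

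Hspa1b is the classic heat-inducible Hsp70 and had 279, 292 and 226 CPM in the woodrats and 366, 403 and 715 CPM in the lab rats. Again the species did not overlap and lab rat 3 was highest, with a log2 fold change of -0.89 (SE 0.33, FDR = 0.0573), or -0.53 without lab rat 3. The authors removed its relatives Hspa1a and Hspa1l from the reference before counting, so its value may hold reads of those genes. The endoplasmic reticulum Hsp70 Hspa5 (BiP), the mitochondrial Hspa9 (mortalin) and Hspa2 overlapped between species, with log2 fold changes of -0.30, -0.14 and 0.63. The distant relatives Hspa12a, Hspa12b and Hspa13 were low, with means between 0.859 and 10.9 CPM, and Hspa12a had the lowest FDR among them at 0.0494.

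J-domain genes were called in both directions. Of 40 in the files, 39 were tested, 3 were higher in woodrats, 6 were lower and 30 did not pass, so 23.1% were called against 20.0% of all tested genes. The 4 Dnaja genes, whose proteins are the general partners of cytosolic and mitochondrial Hsp70, all had log2 fold changes below 0, from -0.84 for Dnaja4 to -0.08 for Dnaja2, and none was called. Dnaja2 turned to 0.05 without woodrat 1. Dnajb1, the stress-inducible partner of Hspa1b, had 39.0 ± 8.13 CPM in the woodrats and 48.2 ± 17.5 CPM in the lab rats, which overlapped.

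Among the 3 higher J-domain genes, Dnajc6 (ENSMUSG00000028528.15) encodes auxilin, which recruits Hsc70 to strip clathrin from vesicles and is best known in neurons. It had 21.1, 19.99 and 11.1 CPM in the woodrats and 2.48, 2.48 and 0.385 CPM in the lab rats, the last of these from 2 reads. Every woodrat was above every lab rat, with a log2 fold change of 3.23 (SE 0.56, FDR = 0.00346). Without woodrat 2 or lab rat 1 or 2 the FDR was 0.0144, 0.0116 and 0.0119. Neuron and glia markers, at 20.02 to 35.2 CPM summed in woodrats and 22.7 to 28.0 CPM in the lab rats, overlapped between species.

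Dnajc4 (ENSMUSG00000024963.10) had 91.6, 69.4 and 42.8 CPM in the woodrats and 15.9, 17.2 and 31.0 CPM in the lab rats. The species did not overlap, but lab rat 3 came near woodrat 3. The log2 fold change was 1.67 (SE 0.37, FDR = 0.0091), and of the 6 fits without 1 animal only the one without woodrat 3 kept it below 0.01, the others giving 0.0112 to 0.0397. DESeq2's size factors gave 0.0113. The third higher gene, Dnajb5, is described with the small heat shock proteins.

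The 6 lower J-domain genes act in several compartments. Dnajc1 (ENSMUSG00000026740.11) and Dnajc3 (ENSMUSG00000022136.7) encode partners of BiP at the endoplasmic reticulum, and Dnajc3 is also known as an inhibitor of the stress kinase PERK. Dnajc1 had 28.1, 25.1 and 16.1 CPM in the woodrats and 52.4, 57.9 and 94.96 CPM in the lab rats, with a log2 fold change of -1.57 (SE 0.33, FDR = 0.00691). Dnajc3 had 53.3, 44.4 and 38.5 CPM in the woodrats and 96.4, 87.2 and 141 CPM in the lab rats, with a log2 fold change of -1.25 (SE 0.27, FDR = 0.00785).

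For both, the species did not overlap and lab rat 3 was highest. No fit without 1 animal kept either below 0.01: omitting woodrats 1, 2 and 3 in turn gave 0.0101, 0.0263 and 0.0132 for Dnajc1 and 0.0107, 0.0364 and 0.0185 for Dnajc3, and omitting each lab rat gave 0.0131 to 0.0189 and 0.0155 to 0.0210. A further reticulum gene went the other way in level. Dnajc10, a J-domain disulfide reductase, had 119 ± 17.4 CPM in the woodrats and 55.6 ± 11.0 CPM in the lab rats and narrowly missed the threshold (log2 fold change 1.10, FDR = 0.0101, or 0.00866 without woodrat 3 and 0.00131 with DESeq2). Dnajb9 and Dnajb11, which also serve BiP, had FDR values of 0.262 and 0.945.

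Dnajc7 (ENSMUSG00000014195.14) encodes a protein that passes clients between Hsp70 and Hsp90. It had 81.3, 109.8 and 83.5 CPM in the woodrats and 214, 199.98 and 268 CPM in the lab rats, a clear gap. The log2 fold change was -1.31 (SE 0.25, FDR = 0.00493), and the 6 fits without 1 animal gave FDR values from 0.0113 without lab rat 3 to 0.0172 without lab rat 1. Dnajb2 (ENSMUSG00000026203.15), which carries client proteins to the proteasome and binds ubiquitin, was tightly grouped at 27.1, 27.6 and 29.5 CPM in the woodrats and higher at 57.8, 65.3 and 75.3 CPM in the lab rats. Its log2 fold change was -1.23 (SE 0.22, FDR = 0.0038), and only the fits without woodrat 3 or lab rat 3 kept it below 0.01, the others giving 0.0101 to 0.0211.

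The remaining lower J-domain genes had few reads. Dnajc24 (ENSMUSG00000027166.13), which takes part in making diphthamide on elongation factor eEF2, had 1.56, 1.80 and 2.37 CPM in the woodrats and 8.19, 5.62 and 11.2 CPM in the lab rats. The species did not overlap, although the lab rats were spread (log2 fold change -2.09, SE 0.41, FDR = 0.00511). The FDR was 0.0101 to 0.0238 without any 1 animal other than woodrat 3. Dnajb3 (ENSMUSG00000081984.3), known for expression in testis, had 1, 2 and 0 reads in woodrats against 32, 20 and 61 in lab rats (FDR = 0.00298, or 0.0113 without woodrat 2). The lab rat level was 40.5 times the woodrat level, with a 95% exact counting interval of 13.5 to 199.5 that covers counting error only. Lab rat 3 held more than the other lab rats together, and the ratio was 25.5 without it, 24.1 without woodrat 3 and 79.4 without woodrat 2.

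**Figure D2:**
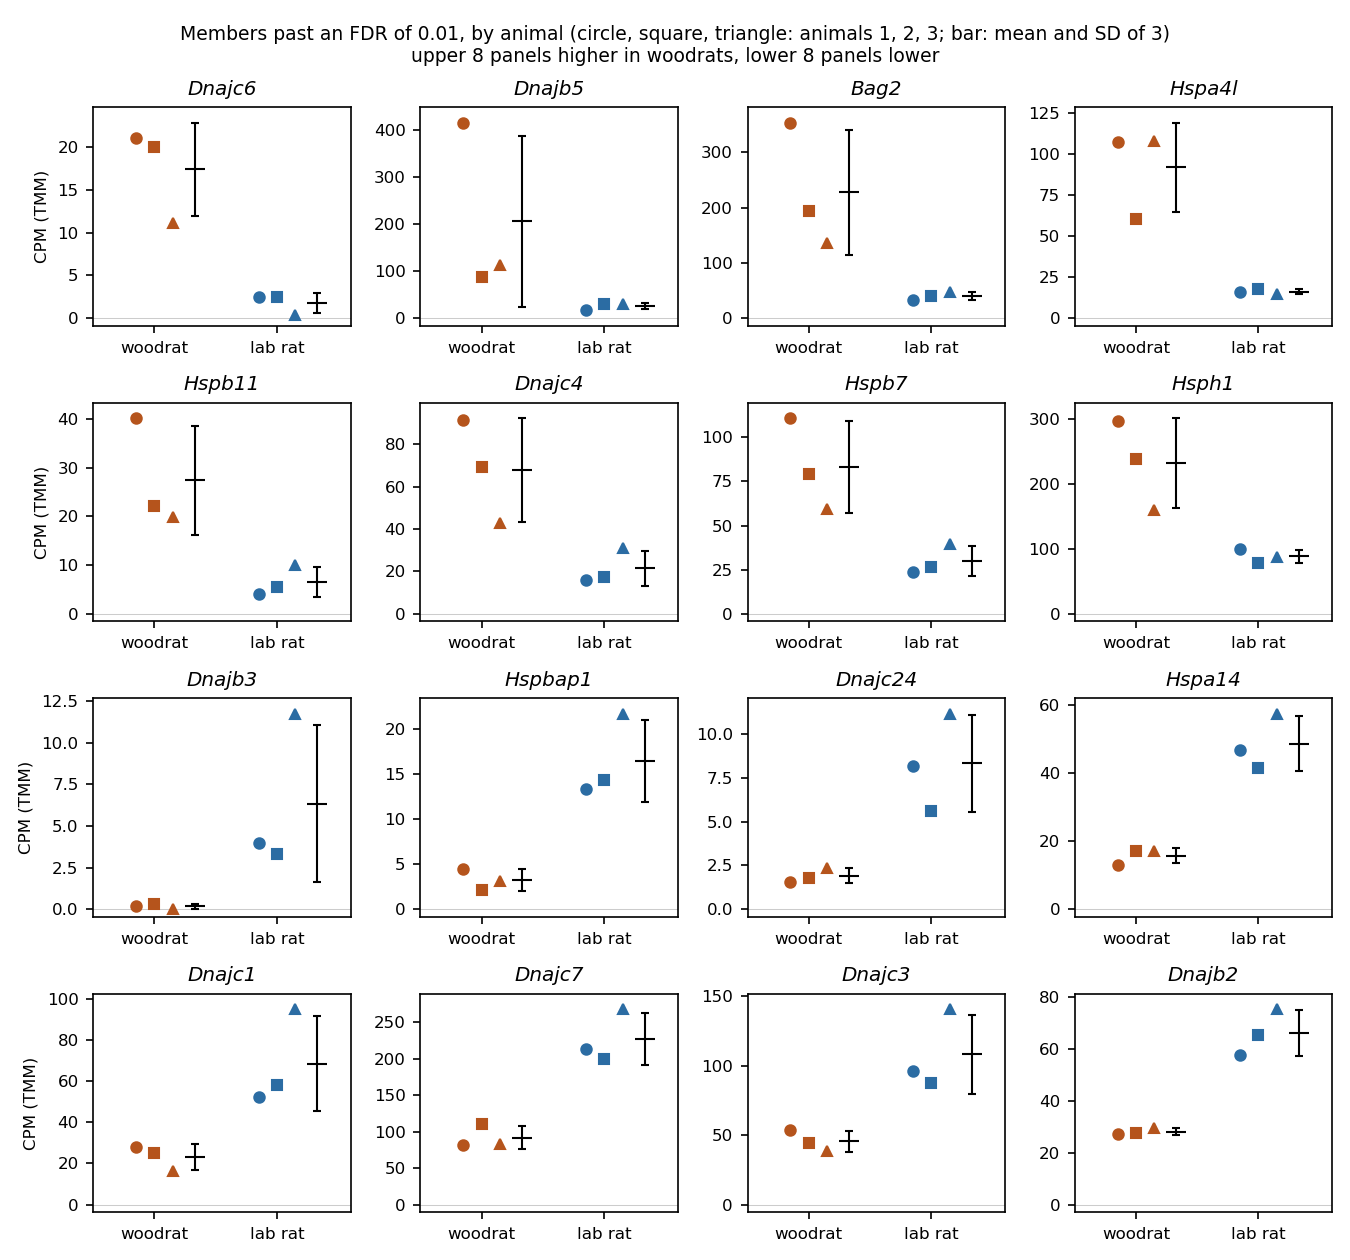
CPM of the 16 called members in each animal (vertical axis, linear from 0), with circles, squares and triangles for animals 1, 2 and 3 and the mean and SD beside them. The upper 8 panels are higher and the lower 8 lower in woodrats, the species do not overlap in any panel, woodrat 1 is the highest woodrat in 7 of the upper panels and lab rat 3 the highest lab rat in all 8 lower ones.

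The chaperonin subunits were alike in direction, and none was called by edgeR. All 8 CCT genes in the files had log2 fold changes below 0, with a median of -0.49, and Cct6a was not analysed here. Over all tested genes 49.0% were below 0. Cct6b was far lower in level than the rest, with means of 19.8 CPM in the woodrats and 26.4 CPM in the lab rats. The other CCT genes had means of at least 175 CPM in either species. Whether the Cct6b value holds reads of Cct6a was not tested. Cct7 had 202, 189 and 212 CPM in the woodrats and 322, 367 and 436 CPM in the lab rats, with a log2 fold change of -0.90 (SE 0.25, FDR = 0.0206), whereas DESeq2 gave 0.00173. Cct4 and Cct3 followed at -0.85 (FDR = 0.0405) and -0.82 (FDR = 0.0486), or -0.58 and -0.55 without lab rat 3.

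Cct8, Cct5 and Cct6b had log2 fold changes of -0.53, -0.46 and -0.41, with the species apart but FDR values from 0.137 to 0.262. Tcp1 and Cct2 overlapped between species, at -0.24 and -0.08. The sum over the 8 genes was 1674, 1836 and 1704 CPM in the woodrats and 2165, 2226 and 3220 CPM in the lab rats. Lab rat 3 was the highest lab rat for 7 of the 8 genes, and without it 7 of 8 were still below 0, with a median of -0.39 and Cct2 at 0.08. Cct2 was also just above 0 without woodrat 3. All 8 remained below 0 with DESeq2's size factors and with total counts in place of TMM.

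The mitochondrial chaperonin pair was likewise below 0 and not called. Hspd1 (Hsp60) had 199, 240 and 236 CPM in the woodrats and 425, 474 and 453 CPM in the lab rats. The gap between species was several times the spread within either, and lab rat 3 lay between the other lab rats. Its log2 fold change of -1.0 (SE 0.24) had an FDR of 0.0126, and DESeq2 gave 0.000108. Its lid Hspe1 (Hsp10) had 109, 120 and 95.7 CPM in the woodrats and 143, 147 and 264 CPM in the lab rats, with a log2 fold change of -0.77 (FDR = 0.0701), or -0.42 without lab rat 3.

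**Figure D3:**
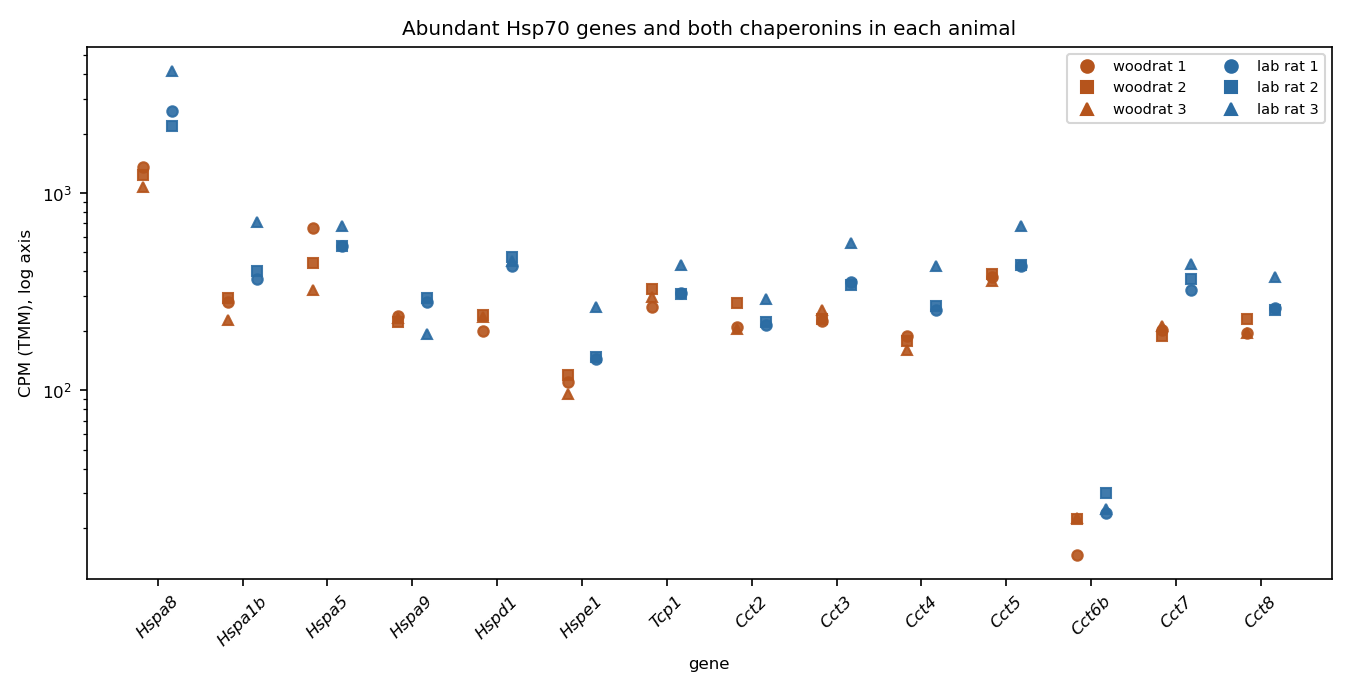
CPM on a log axis of 4 abundant Hsp70 genes, both mitochondrial chaperonin genes and the 8 CCT genes, 1 point per animal, woodrats in orange and lab rats in blue. Lab rats sit above woodrats for Hspa8, Hspa1b, Hspd1, Hspe1 and 6 of the 8 CCT genes, with lab rat 3 (triangle) highest for most, while Hspa5, Hspa9, Tcp1 and Cct2 overlap. None of these 14 genes passed an FDR of 0.01.

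The small heat shock proteins split by gene. Hspb1 (Hsp27), which guards actin and keratin filaments, varied widely. It had 2904, 1870 and 1961 CPM in the woodrats and 2094, 2043 and 4620 CPM in the lab rats, so the species overlapped (log2 fold change -0.38, FDR = 0.518), and without lab rat 3 the value was 0.12. Hspb2, a muscle form, also overlapped (FDR = 0.673) and changed sign without woodrat 3 or lab rat 3, at 0.05 and 0.07.

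Hspb7 (ENSMUSG00000006221.7), known from heart and other muscle, rose. It had 111, 79.0 and 59.3 CPM in the woodrats and 23.7, 26.6 and 39.5 CPM in the lab rats, and differed by a log2 fold change of 1.47 (SE 0.32, FDR = 0.00781). Without woodrat 3 the FDR was 0.00405, and without any other animal it was 0.0118 to 0.0354. Hspb3 failed the filter, with 2, 2 and 1 reads in woodrats and 0 in lab rats, and was at or under the level of 3 counts in every animal.

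Dnajb5 and Bag2 moved in the same direction as Hspb7. Dnajb5 (ENSMUSG00000036052.13), a J-domain protein of the cytosol and nucleus known in muscle, had 415, 88.3 and 112 CPM in the woodrats and 18.1, 29.4 and 30.2 CPM in the lab rats. Woodrat 1 lay far above the rest, but the lowest woodrat was still above the highest lab rat. The log2 fold change was 2.98 (SE 0.60, FDR = 0.00597), and without woodrat 1 it was 1.95 (FDR = 0.00316). Without lab rats 1, 2 and 3 the FDR was 0.0235, 0.0211 and 0.0305.

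Bag2 (ENSMUSG00000042215.8) encodes a nucleotide exchange factor that inhibits the ubiquitin ligase CHIP. It had 354, 194 and 136 CPM in the woodrats and 33.3, 39.4 and 46.6 CPM in the lab rats. The species were well apart, with a log2 fold change of 2.52 (SE 0.38, FDR = 0.00203), or 2.05 (FDR = 0.00209) without woodrat 1. Without any 1 lab rat the FDR was between 0.0107 and 0.0108.

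Woodrat 1 was the highest woodrat for 7 of the 8 higher members, Hspa4l being the exception, and it was the highest woodrat for all 8 smooth muscle markers. Over the 75 tested members woodrat 1 was the highest woodrat for 54.7%, and over all tested genes for 37.6%. Its level was a median 1.62 times the mean of the other woodrats over the 8 members and 2.49 times over the 8 markers. Over the 75 tested members this ratio was 1.15, and over all tested genes 0.975. All 8 smooth muscle markers had positive log2 fold changes, with a median of 2.38, and 2 of them passed the threshold (25%, against 10.3% of all tested genes called higher). The 7 striated muscle markers were mixed. Their sum of 211 to 457 CPM in the woodrats and 64.7 to 96.3 CPM in the lab rats lay mostly in Ckm, at 139.7 to 331 against 16.1 to 36.4 CPM, and Actn3, at 51.2 to 125 against 40.4 to 60.7 CPM. Myh1, Myh2, Myh4 and Tnnt3 were at most 5.2 CPM in any animal and lower in every woodrat than in every lab rat, and Mb was near 0. The part of muscle content in these results was not tested. Hspb6 and Hspb8, small heat shock genes outside the symbol rule, had log2 fold changes of 2.13 (FDR = 0.0129) and 1.58 (FDR = 0.0188), with woodrat 1 highest for both. Without woodrat 1 these values were 1.26 (FDR = 0.0105) and 0.95 (FDR = 0.0287), and without woodrat 3 the FDR was 0.0069 and 0.00949. Cryab, a further small heat shock gene outside the rule, had 348, 197 and 108 CPM in the woodrats and 116, 147 and 280 CPM in the lab rats. It overlapped between species (log2 fold change 0.27, FDR = 0.682).

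**Figure D4:**
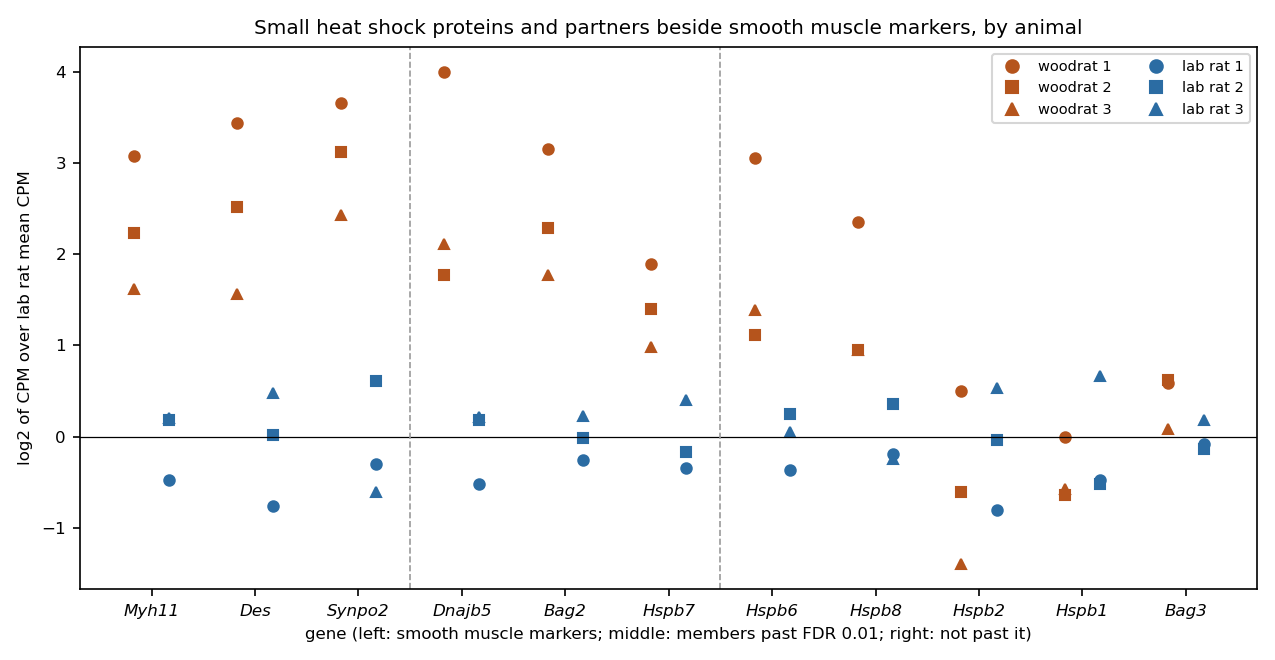
Log2 of CPM over the lab rat mean CPM in each animal, for 3 smooth muscle markers (left), the called members Dnajb5, Bag2 and Hspb7 (middle) and 5 related genes that were not called (right). Woodrat 1 (orange circle) is the highest animal for the markers and for Dnajb5, Bag2, Hspb7, Hspb6 and Hspb8, while Hspb2, Hspb1 and Bag3 overlap between species.

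The other BAG genes did not pass the test. Bag3, the partner of Hspb8 in clearing damaged muscle proteins, had 164, 167 and 115 CPM in the woodrats and 103, 99.2 and 123 CPM in the lab rats, which overlapped (log2 fold change 0.45, FDR = 0.176). Bag6, which guards membrane proteins before insertion, had 319.8 ± 8.15 CPM in the woodrats and 209.8 ± 40.1 CPM in the lab rats without overlap (FDR = 0.0818). Bag5 was at 40.9 ± 3.88 and 71.5 ± 13.3 CPM, a log2 fold change of -0.80 with an FDR of 0.0258. Bag1 and Bag4 overlapped between species.

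Neither heat shock factor was called. Hsf1, the main switch of the heat shock response, had 59.2, 47.1 and 48.7 CPM in the woodrats and 42.8, 40.7 and 57.6 CPM in the lab rats, with a log2 fold change of 0.13 (SE 0.24, FDR = 0.682). Hsf2 had 15.0 ± 4.08 CPM in the woodrats and 7.68 ± 2.61 CPM in the lab rats, with a log2 fold change of 0.95 (FDR = 0.0656) and no overlap. Stip1 (Hop), which bridges Hsp70 and Hsp90, had 148 ± 27.0 and 187 ± 7.99 CPM, also without overlap (FDR = 0.285).

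Both members that share the Hsp name without being chaperones by family were called, in opposite directions. Hspb11 (ENSMUSG00000063172.12) is the intraflagellar transport protein IFT25 of cilia. It had 40.2, 22.2 and 19.8 CPM in the woodrats and 3.97, 5.46 and 10.02 CPM in the lab rats, and differed by a log2 fold change of 2.09 (SE 0.44, FDR = 0.00719), and only the fits without woodrat 3 or lab rat 3 kept it below 0.01, the others giving 0.0167 to 0.0307. Hspbap1 (ENSMUSG00000022849.4), a binding partner of small heat shock proteins, had 4.49, 2.08 and 3.08 CPM in the woodrats and 13.4, 14.4 and 21.8 CPM in the lab rats. Its log2 fold change was -2.37 (SE 0.39, FDR = 0.00281), and the FDR was 0.0135 without woodrat 2 and 0.0104 without lab rat 3. Neither gene overlapped between species.

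Further J-domain genes not called included Dnajb4 and Dnajb6, with log2 fold changes of 1.26 (FDR = 0.0326) and 0.63 (FDR = 0.0413), both without overlap. Dnajc18 and Dnajc28 were also positive (FDR = 0.0366 and 0.0389), and Dnajc15, of the mitochondrial import motor, was at -1.12 (FDR = 0.041). At an FDR below 0.05, 14 members were higher and 16 lower, against 21.0% and 18.9% of all tested genes. Dnajc5b was the other member that failed the filter, with 4 reads over all 6 animals.

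Beyond the members, 71 other chaperone and folding genes were tested, of which 2 were higher in woodrats and 8 lower. These are 2.82% and 11.3%, against 10.3% and 9.71% of all tested genes. With DESeq2's size factors the split was 3 and 6. In the Hsp90 machinery 1 of 18 was higher and 1 lower (5.56% each, against 10.3% and 9.71% of all tested genes). Hsp90aa1 and Hsp90ab1, the cytosolic forms, had log2 fold changes of -0.50 and -0.64 with FDR values of 0.184 and 0.148, and the reticulum form Hsp90b1 overlapped. The co-chaperone Ptges3 (p23) was at 80.9, 72.9 and 72.3 CPM in the woodrats and 155, 168 and 143 CPM in the lab rats, and differed by a log2 fold change of -1.05 (SE 0.22, FDR = 0.00659).

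Fkbp5, an Hsp90 partner of steroid receptors that glucocorticoids induce, had 17.6, 135 and 73.9 CPM in the woodrats and 4.84, 2.32 and 1.93 CPM in the lab rats. The woodrats were widely spread but all higher, with a log2 fold change of 4.6 (SE 0.75, FDR = 0.00264), or 3.84 without woodrat 2. Without lab rat 2 or 3 the FDR was 0.0124 and 0.0200.

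Of the 22 genes of reticulum folding and the unfolded protein response, 4 were lower (18.2%, against 9.71% of all tested genes) and none was higher (against 10.3%). These were Edem1, which sends misfolded glycoproteins to degradation, at -1.99 (FDR = 0.00247), Herpud1 at -1.12 (FDR = 0.00829), and the stress-induced Manf at -1.46 (FDR = 0.00962) and Creld2 at -1.10 (FDR = 0.0099). Sel1l, an adaptor of the same degradation path as Herpud1, had a log2 fold change of 1.95 and an FDR just above the threshold at 0.01004. Of the 22 genes, 17 had log2 fold changes below 0 (77.3%, against 49.0% of all tested genes) and 5 above 0, with a median of -0.66. Dnajc1 and Dnajc3 were lower as well, while BiP overlapped between species. The reticulum genes were thus mostly, but not all, below 0.

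Among 14 prefoldin and tubulin-folding genes, which work with CCT, Tbce and Pfdn1 were lower, with log2 fold changes of -2.18 (FDR = 0.000828) and -1.58 (FDR = 0.00478). In this list 14.3% of genes were lower and 7.14% higher, against 9.71% and 10.3% of all tested genes. The prefoldin subunit Vbp1 was higher, with 582 reads in woodrats and 1 read in lab rats (FDR = 0.000168). That is a ratio of 541, with a 95% exact counting interval of 96.7 to 21395 that covers counting error only, and the single lab rat read lay in lab rat 3. The other prefoldin genes had lab rat means from 29.7 CPM (Pfdn4) to 156 CPM (Pfdn5). Whether lab rat reads of Vbp1 failed to be assigned to the mouse gene was not tested, so its absence in lab rats is not shown. The remaining prefoldin genes Pfdn2, Pfdn4, Pfdn5 and Pfdn6 overlapped between species. In the list of 17 mitochondrial folding and other co-chaperone genes, only the disaggregase Clpb was called, at -1.38 (FDR = 0.00604). That is 5.88%, against 20.0% of all tested genes called in either direction.

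Of these 10 calls, only those of Vbp1 and Tbce had an FDR below 0.01 in each of the 6 fits without 1 animal. The FDR of Edem1 was 0.0109 without woodrat 2 and 0.0105 and 0.0114 without lab rats 1 and 2. Pfdn1 stayed below 0.01 only without woodrat 1 or lab rat 3, and Clpb and Ptges3 only without lab rat 3, with values of up to 0.0228, 0.0275 and 0.0353 in the other fits. Herpud1, Manf and Creld2 passed in none of the 6, with values from 0.0107 to 0.0434. Creld2 was also above 0.01 with the 5 CPM filter, without a filter and with DESeq2's size factors (0.0103, 0.0109 and 0.0103), as was Manf with the 5 CPM filter and those size factors (0.0108 and 0.0103). Ptges3 was at 0.0112 with total counts.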

How the data were processed

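The authors cleaned the reads with Trimmomatic and joined mates that overlapped using FLASH. Their alignment with cross_match used coding transcripts of the mouse (GENCODE M7), and strand-matched reads were summed by gene. They deposited raw counts of uniquely assigned reads, without normalization. Versions are not given in the sources used here. Divergence from mouse differs by gene and species, and its part in the results was not tested. Groups and replicate numbers came from the sample titles.

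Counts were joined by gene identifier in Python 3.11.15. The test took genes reaching 1 CPM in 3 or more animals and was run in R 4.3.3 with edgeR 4.0.16 (TMM, the quasi-likelihood F-test used before version 4, prior count 0.125, species as the only term, Benjamini-Hochberg adjustment over 12603 genes). The SE is the fold change divided by the square root of F. DESeq2 1.42.0 and the other alternatives are given in the closing section. The code was tested on simulated data. Chi-square per degree of freedom between animals of a species was 10.1 to 121.3, above sampling noise.

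Members and lists were chosen with earlier results of these data known. Named are all called members, the main families, members failing the filter, the most abundant members, and called genes of the other chaperone lists. Dnajc2, Dnajc9, Dnajc13, Dnajc15, Dnajc18, Dnajc19, Dnajc28, Dnajb14, Sel1l and the prefoldin genes that overlapped were named after their values were seen. The other chaperone lists hold 72 genes, of which 71 were in the files. Marker lists covered smooth muscle, squamous and glandular epithelium, striated muscle, neurons, leukocytes, fibroblasts and endothelium. Leukocyte markers summed to 14.5 to 41.9 CPM in woodrats and 197 to 303 CPM in lab rats, where Cd74 alone held 154 to 270 CPM. Of 5 tested leukocyte markers 4 were called lower in woodrats (80%, against 9.71% of all tested genes), and Cd68 overlapped between species. Cd79a, not tested, had few reads and was higher in woodrats. Fibroblast markers summed to 628 to 1219 CPM in woodrats and 1237 to 1608 CPM in lab rats. Endothelial markers summed to 48.4 to 97.9 and 91.5 to 103.4 CPM. No genome or sequence table was used here, so no positions, lengths or sequences are given and levels are not compared per length.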

Additional observations from a re-analysis of the deposited data

How the results depend on the processing

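Both member counts (8 higher, 8 lower) stayed within 1.5 times under a 5 CPM filter, no filter, DESeq2's size factors, total counts only, edgeR's version 4 method and DESeq2. With the replicate number as a block, 2 members were higher (Hspa4l and Dnajc6) and 0 lower, and 1 other chaperone gene was called in each direction. All 16 called members, for which the species did not overlap, kept their sign and an FDR below 0.05 under the block. Same-numbered animals had correlations of -0.289, -0.088 and -0.279 in their deviations from species means, so the numbers do not pair them. No animal correlated best with its own number. At an FDR below 0.05 the counts were 14 and 16 members and 9 and 17 other chaperone genes. Other chaperone genes higher in woodrats numbered 4 without a filter and 8 under DESeq2.

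With each animal left out, 1 to 9 members were higher and 0 to 5 lower, and 1 to 4 other chaperone genes were higher and 1 to 5 lower. Each such fit has fewer samples. The share of all tested genes called was not taken in these fits or under the block. The lower counts therefore cannot be read as particular to the members. Some members that were not called changed sign. Bag4, at 0.04, was -0.054 with total counts only, Dnajb11, at 0.02, was -0.0117 with DESeq2's size factors and -0.01045 under DESeq2, and the cause was not tested. Over the fits without 1 animal the values ran from -0.285 to 0.359 for Bag4, -0.270 to 0.0753 for Cct2, -0.322 to 0.0454 for Dnaja2, -0.0631 to 0.0944 for Dnajb11, -0.608 to 0.118 for Hspb1 and -0.946 to 0.06754 for Hspb2. Dnajc19 (-0.434 to 0.215), Dnajc13 (-0.048 to 0.259), Dnajb14 (-0.0732 to 0.173) and Dnajc9 (-0.110 to 0.106) crossed 0 as well.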
